A study of Mus musculus with 7 samples.

Results

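The 7 genes *Efcab10*, *Rimbp2*, *Ppid*, *Ppp2r1b*, *Pdlim4*, *Kcnk3* and *Sugct* were examined in wild-type (WT) and *Glis3* mutant testes of the mouse fetus. They were chosen by their own FPKM values in this comparison, as genes outside the known germ cell and Leydig cell lists. In them no WT library overlapped any mutant library, and the spread within each genotype was to be small, which did not hold for *Rimbp2*. They make up 7 of the 24739 genes in the FPKM table, and all 7 were among the 13988 genes tested, those whose mean reached 0.5 FPKM. Because the separation of the genotypes was the reason for choosing them, their values are given as a description, without a test. FPKM scales the sequenced fragments of a gene to its length and to the size of the library.

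The libraries came from whole testes at E14.5, 1 pair of testes from a single embryo per library, with a C57BL/6 strain background in both groups. The WT group held 3 libraries and the mutant group held 4 libraries homozygous for *Glis3* zf5. This allele is a deletion that takes out exon 4 and neighbouring intron sequence of *Glis3*, the gene of a zinc finger transcription factor. The deletion is carried by every cell of the embryo, in the testis and elsewhere, and homozygotes die soon after birth. Whole testis RNA mixes germ cells, Sertoli cells, Leydig cells, peritubular and other interstitial cells and vessels, so a lower value in a library cannot tell fewer cells of a type apart from less RNA per cell.

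The 7 genes encode proteins with different tasks. *Efcab10* encodes a little studied protein with an EF-hand, the loop that binds calcium in many sensors. RIMBP2 is a scaffold protein of the presynaptic active zone, where it links RIM proteins to voltage-gated calcium channels. PPID, also called cyclophilin 40, is a peptidyl-prolyl isomerase that joins the chaperone HSP90 in steroid receptor complexes. PPP2R1B is the beta form of the scaffold (A) subunit of protein phosphatase 2A, a phosphatase assembled from a scaffold, a catalytic and an exchangeable regulatory subunit. PDLIM4 carries a PDZ and a LIM domain and binds alpha-actinin on actin filaments. KCNK3, also called TASK-1, is a two-pore domain channel that carries a background potassium current and closes in acid. SUGCT is a mitochondrial enzyme that moves coenzyme A from succinyl-CoA to glutarate, a product of lysine breakdown.

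One library stood apart from the others of its label in *Glis3* and in part of the germ cell genes. *Glis3* (chr19, 28262448 to 28680077, minus strand) measured 7.63 and 6.89 FPKM in WT replicates 1 and 2 but 2.91 FPKM in the library labelled WT rep3, and 3.86, 3.26, 2.90 and 2.66 FPKM in the mutant libraries. FPKM covers the whole gene and the deletion takes only part of it, so this level does not read the genotype directly. The summed FPKM of 8 germ cell genes (*Ddx4*, *Dazl*, *Pou5f1*, *Sall4*, *Dppa3*, *Kit*, *Mael* and *Nanos3*) was 1291 and 963 in WT replicates 1 and 2, 549.6 in the library labelled WT rep3 and 448 to 596 in the mutant libraries. Of the sum in the library labelled WT rep3, 243 FPKM came from *Dppa3*, and single genes differed. It was inside the mutant range in *Dppa3*, *Pou5f1*, *Mael* and *Nanos3*. It was above every mutant library in *Dazl* (167 against 98.6 to 141 FPKM), *Ddx4* (53.1 against 33.6 to 42.2 FPKM), *Sall4* and *Kit*. Values of the library labelled WT rep3 are therefore named below where libraries are listed singly. The log2 differences of the 7 genes are given with and without it. Values of the WT group are listed in the order replicate 1, replicate 2 and the library labelled WT rep3, and values of the mutant group in the order replicates 1 to 4.

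The promoters of the genes are shown first because the mutated protein binds DNA. GLIS proteins recognise guanine-rich elements through zinc fingers of the type found in the GLI proteins, so 2 short words were searched on both strands, TGGGGGG as a core of GLIS elements and TGGGTGG as a core of GLI elements. The words can overlap in part but cannot begin at the same base of a strand. Of 32851 RefSeq promoters of GRCm38.p6, each from 250 bases before to 50 bases after a start site, 8.47% held TGGGGGG and 9.30% held TGGGTGG. The promoter table held 5 of the 7 genes, and *Ppid* and *Kcnk3* were not among them. Among the genes with lower FPKM in mutant testes, the *Rimbp2* promoter (chr5:128953437-128953736, minus strand) held 1 TGGGTGG beginning 230 bases before its start site, which lies 124 bases upstream of the gene model in the FPKM table, while the *Efcab10* promoter (chr12:33394604-33394903, plus strand) and the *Ppp2r1b* promoter (chr9:50856674-50856973, plus strand) held neither word. Among the genes with higher FPKM, the *Pdlim4* promoter (chr11:54068968-54069267, minus strand) held 1 TGGGGGG beginning 147 bases before its start site and the *Sugct* promoter (chr13:17694716-17695015, minus strand) held 1 beginning 41 bases before its start site. The 3 promoters with a match and that of *Efcab10*, without one, follow from 5′ to 3′ on the strand of the gene, with the matched words in capitals.
Rimbp2: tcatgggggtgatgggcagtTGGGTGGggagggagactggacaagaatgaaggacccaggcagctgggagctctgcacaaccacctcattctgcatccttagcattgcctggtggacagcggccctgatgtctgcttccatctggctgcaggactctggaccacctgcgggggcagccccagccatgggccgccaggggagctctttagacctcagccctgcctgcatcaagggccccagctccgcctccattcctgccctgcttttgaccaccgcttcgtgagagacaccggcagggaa
Pdlim4: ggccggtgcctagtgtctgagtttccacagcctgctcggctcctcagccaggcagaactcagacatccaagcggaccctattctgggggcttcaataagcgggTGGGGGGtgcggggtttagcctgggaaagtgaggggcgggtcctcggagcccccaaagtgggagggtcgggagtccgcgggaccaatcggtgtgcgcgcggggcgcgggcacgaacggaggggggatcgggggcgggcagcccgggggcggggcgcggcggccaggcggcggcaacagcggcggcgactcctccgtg
Sugct: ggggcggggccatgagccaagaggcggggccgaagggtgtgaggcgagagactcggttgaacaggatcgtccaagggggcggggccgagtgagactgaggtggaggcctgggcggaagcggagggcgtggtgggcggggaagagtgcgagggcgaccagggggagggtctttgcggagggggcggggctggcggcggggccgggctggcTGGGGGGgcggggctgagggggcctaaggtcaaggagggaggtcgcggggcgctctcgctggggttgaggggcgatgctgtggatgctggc
Efcab10: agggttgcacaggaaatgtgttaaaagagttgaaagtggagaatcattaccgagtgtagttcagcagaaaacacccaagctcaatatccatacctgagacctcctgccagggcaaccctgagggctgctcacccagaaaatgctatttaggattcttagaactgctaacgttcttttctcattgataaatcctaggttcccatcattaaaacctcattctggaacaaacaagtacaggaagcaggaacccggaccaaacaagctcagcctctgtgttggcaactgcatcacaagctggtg
The promoters with TGGGGGG were rich in G and C, 71.7% of bases for *Pdlim4* and 73.7% for *Sugct*, against a median of 52.7% over all promoters, 62.7% for *Rimbp2*, 62.3% for *Ppp2r1b* and 45.3% for *Efcab10*. A match is a word in the sequence and not a measured binding site.

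The gene with the widest gap between the genotypes was *Rimbp2* (chr5, 128760401 to 128953362, minus strand). It measured 2.46, 1.49 and 1.25 FPKM in the WT libraries and 0.191, 0.152, 0.375 and 0.396 FPKM in the mutant libraries. The WT libraries were spread widely, with replicate 1 highest and the library labelled WT rep3 lowest, yet the lowest of them was above the highest mutant library. The means were 1.74 ± 0.638 FPKM (SD, n = 3) and 0.279 ± 0.125 FPKM (SD, n = 4), 6.23-fold lower in mutant testes. On the log2(FPKM + 0.5) scale used for all fold changes here, on which weakly expressed genes appear to differ less than they do in FPKM, the difference of mutant minus WT was -1.5, and -1.66 without the library labelled WT rep3. A smaller or larger pseudocount moved it, to -2.28 with 0.1 and -1.08 with 1. The SD within groups of log2(FPKM + 0.5) was 0.31 in *Rimbp2*, against a median of 0.13 over all genes tested. In *Efcab10* it was 0.13.

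*Efcab10* (chr12, 33394854 to 33401269, plus strand) measured 2.94, 3.03 and 2.65 FPKM in the WT libraries and 1.32, 1.2, 0.997 and 1.40 FPKM in the mutant libraries. The WT libraries lay close together, and even the lowest of them, the library labelled WT rep3, was well clear of the highest mutant library. The means of 2.87 ± 0.195 (SD, n = 3) and 1.23 ± 0.176 FPKM (SD, n = 4) were 2.33-fold apart. The log2 difference was -0.97, and it was -1.01 without the library labelled WT rep3.

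The other genes with lower values in mutant testes had small folds with a very small spread. *Ppid* (chr3, 79591389 to 79603650, plus strand) measured 62.9, 60.5 and 60.1 FPKM in the WT libraries and 47.1, 46.9, 48.2 and 48.6 FPKM in the mutant libraries. The coefficient of variation, the SD as a share of the mean, was 2.49% among WT and 1.76% among mutant libraries, while the means of 61.1 ± 1.52 (SD, n = 3) and 47.7 ± 0.837 FPKM (SD, n = 4) were 1.28-fold apart. The log2 difference was -0.36, and -0.37 without the library labelled WT rep3.

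*Ppp2r1b* (chr9, 50856924 to 50894229, plus strand) measured 26.7, 26.1 and 24.5 FPKM in the WT libraries and 19.99, 19.4, 19.0 and 18.2 FPKM in the mutant libraries. The libraries of each genotype were again close, and the library labelled WT rep3 was the lowest of its group. The means of 25.7 ± 1.15 (SD, n = 3) and 19.1 ± 0.769 FPKM (SD, n = 4) were 1.35-fold apart, with a log2 difference of -0.42 that became -0.45 without the library labelled WT rep3.

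Among the genes with higher values in mutant testes, *Pdlim4* (chr11, 54054928 to 54069017, minus strand) measured 35.4, 39.9 and 36.7 FPKM in the WT libraries and 52.7, 56.8, 50.04 and 55.5 FPKM in the mutant libraries. It was among the more highly expressed genes, above 85.8% of the genes tested by mean FPKM, and the library labelled WT rep3 lay between the other WT libraries. The means were 37.3 ± 2.29 (SD, n = 3) and 53.8 ± 3.02 FPKM (SD, n = 4), 1.44-fold higher in mutant testes. The log2 difference was 0.52, and 0.51 without the library labelled WT rep3.

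*Kcnk3* (chr5, 30588170 to 30625270, plus strand) measured 9.52, 8.91 and 8.35 FPKM in the WT libraries and 12.3, 12.7, 12.6 and 12.6 FPKM in the mutant libraries. The mutant libraries were nearly identical, with a coefficient of variation of 1.49%, and the library labelled WT rep3 was the lowest and so the farthest from them. The means of 8.93 ± 0.581 (SD, n = 3) and 12.5 ± 0.186 FPKM (SD, n = 4) were 1.40-fold apart. The log2 difference was 0.47, and 0.43 without the library labelled WT rep3.

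*Sugct*, the longest of the 7 genes (chr13, 16857475 to 17694765, minus strand), measured 3.33, 3.54 and 3.95 FPKM in the WT libraries and 5.86, 5.76, 5.87 and 5.28 FPKM in the mutant libraries. The library labelled WT replicate 3 was the highest of its group and mutant replicate 4 the lowest of the other. The means of 3.61 ± 0.316 (SD, n = 3) and 5.70 ± 0.279 FPKM (SD, n = 4) were 1.58-fold apart, with a log2 difference of 0.60 and of 0.65 without the library labelled WT rep3.

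**Figure D1:**
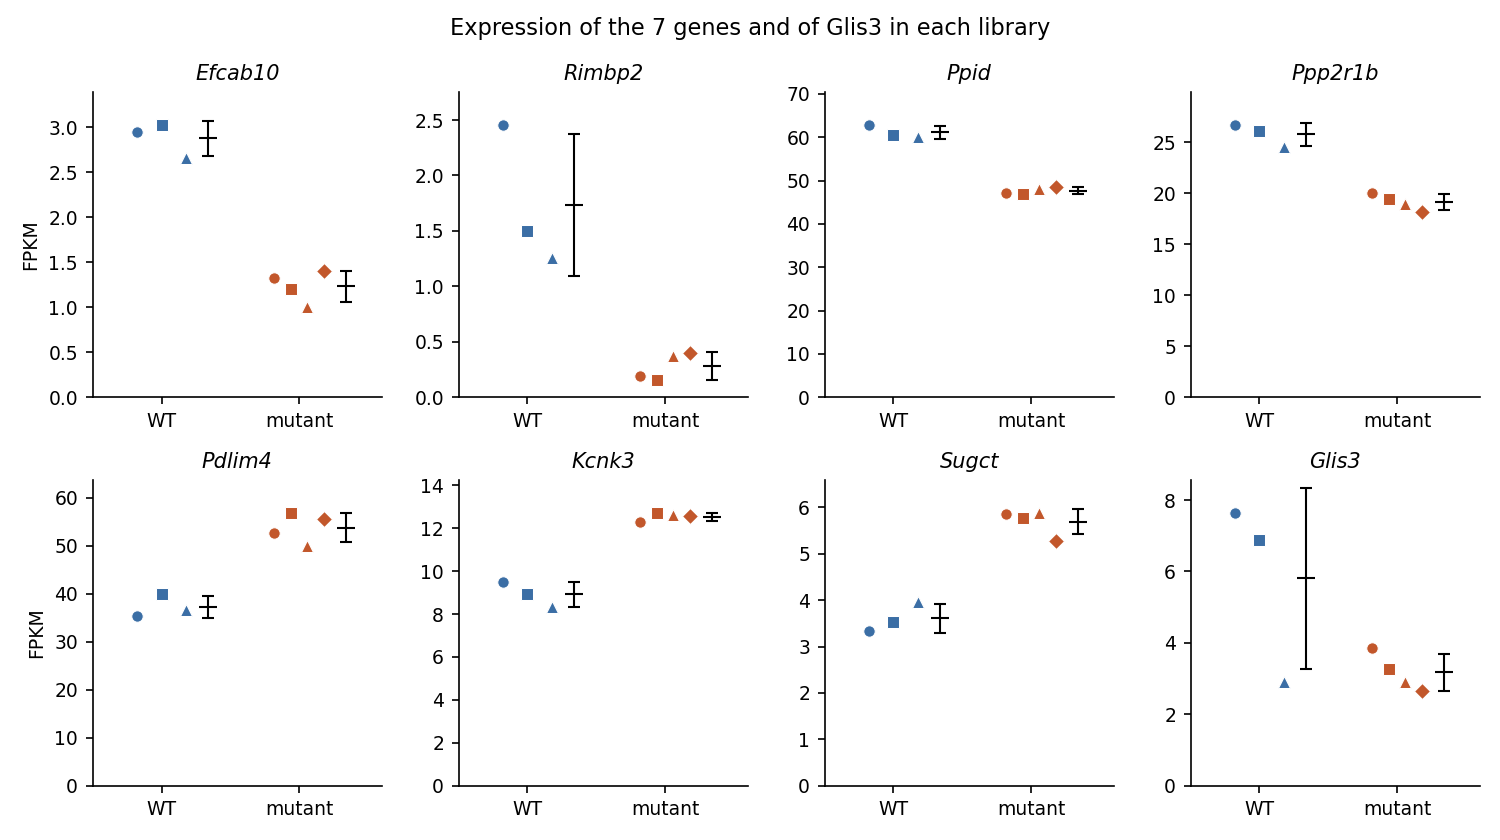
FPKM of the 7 genes and of *Glis3* in each library, on axes that start at 0. Each point is 1 library (circle, square, triangle and diamond for replicates 1 to 4; blue, WT; orange, mutant) and the black bars give the mean and SD of 3 WT and 4 mutant libraries. The genotypes do not overlap in any of the 7 genes, whereas the WT rep3 point of *Glis3*, at 2.91 FPKM, lies among the mutant points.

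By mean FPKM over all 7 libraries, *Ppid* was the most abundant of the 7 genes, above 87.9% of the genes tested, although *Pdlim4* was above it in every mutant library. *Pdlim4* and *Ppp2r1b* came next, the latter above 69.8% of them, followed by *Kcnk3* above 51.0%, *Sugct* above 31.8%, *Efcab10* above 17.0% and *Rimbp2* above 7.18%. In WT testes the ranges of *Sugct* and *Efcab10*, neighbours in this order, lay near each other but did not overlap, and those of *Rimbp2* and *Efcab10* did not overlap either.

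The separation was placed on a common scale as the gap, the log2 distance between the nearest WT and mutant libraries, divided by the larger of the ranges within a genotype. In *Ppid* the gap of 0.30 was 4.64 times the larger range of 0.07, first among the 13988 genes tested. The ratio was 2.12 in both *Ppp2r1b* (14th) and *Efcab10* (15th), 1.97 in *Kcnk3* (23rd), 1.79 in *Pdlim4* (30th) and 1.74 in *Sugct* (32nd). *Rimbp2* was 66th with a ratio of 1.28, since its gap of 0.97 came with a range of 0.76. It ranked 3rd by the gap alone and 25th by the size of its fold change.

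These 7 genes were thus a choice from a longer series. Among all genes tested, 1062 (7.59%) had all mutant libraries below all WT libraries, as 4 of the 7 genes did, and 1023 (7.31%) had every mutant library above, as the other 3 did. In 126 genes the gap exceeded the larger range, and 59 genes outside the list were separated at least as well as *Rimbp2*. The best separated of these was *Blcap* with a ratio of 3.94, the nearest above *Rimbp2* was *Htra1* with 1.29, and the next below was *Clp1* with 1.28. These 3 genes were named after their values were seen. Without the library labelled WT rep3, 4567 genes were separated, 986 of them by more than the larger range, and the 7 genes ranked 16th (*Ppid*), 51st (*Kcnk3*), 65th (*Sugct*), 146th (*Ppp2r1b*), 176th (*Efcab10*), 308th (*Rimbp2*) and 392nd (*Pdlim4*).

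**Figure D2:**
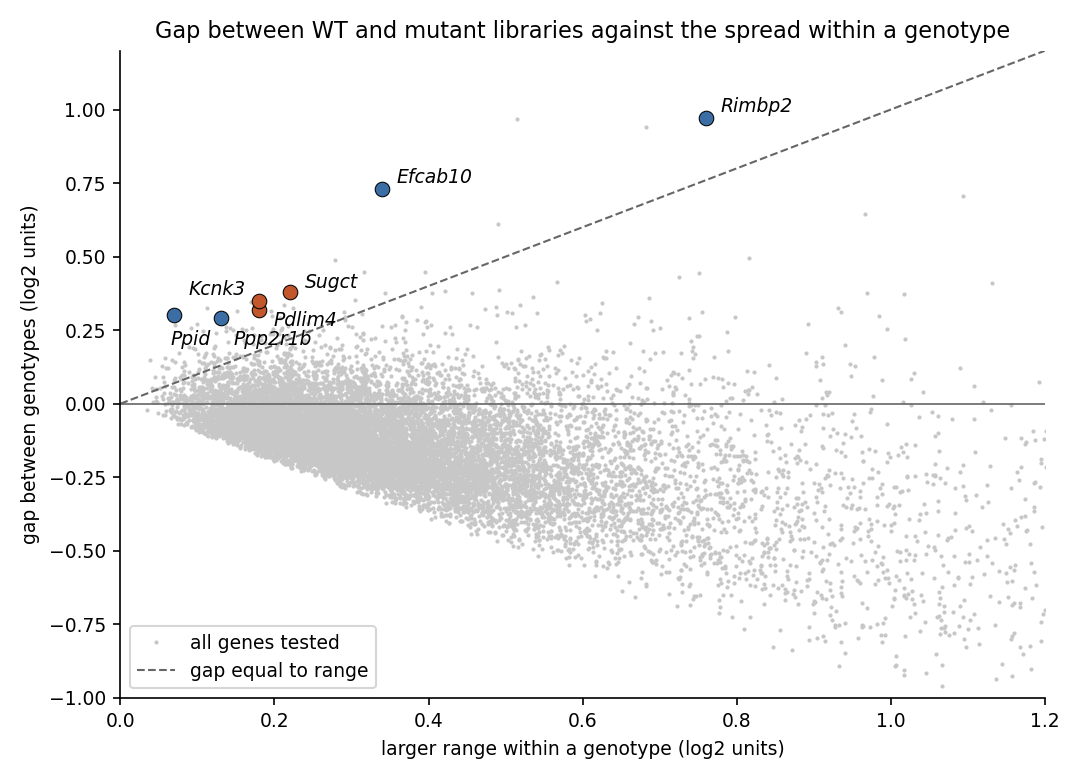
Gap between the nearest WT and mutant libraries against the larger range within a genotype, both in log2 units of FPKM + 0.5, for each gene tested (grey) and for the 7 genes (blue, lower in mutant; orange, higher). Points above 0 do not overlap between genotypes and points above the dashed line have a gap larger than the range; *Ppid* lies far left at a range of 0.07 and *Rimbp2* far right at 0.76. Genes beyond the axes are not drawn.

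Only 1 of the 13988 genes (0.00715%) passed an adjusted p of 0.05 in limma, and 2379 (17.0%) had an unadjusted p under 0.05. The gene that passed was *Cpsf4l*, which is not among the 7 genes and was named after its value was seen, with a log2 difference of -2.91 (standard error 0.21, adjusted p = 0.00547). Without the library labelled WT rep3, 720 genes passed.

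Marker genes of testis cell types were read in the same libraries. Of 8 germ cell genes, 6 had an unadjusted p under 0.05 with lower values in mutant testes, where 8.79% of all genes tested did, and their median log2 difference was -0.81. Of 6 fetal Leydig cell genes, 5 had an unadjusted p under 0.05 with higher values, where 8.21% of all genes did, with a median of 0.47 and summed FPKM of 1654 to 2724 in WT and 2578 to 3155 in mutant libraries. Among 8 Sertoli cell genes 1 was higher by the same measure (median 0.14), among 6 interstitial and peritubular genes 2 were higher (median 0.18), and none of 5 endothelial and 5 macrophage genes was. Tissues that could come along in a dissection and, apart from these, granulosa cells were read too. Of the genes tested, 1 of 4 neural, 1 of 3 adrenal cortex and 1 of 1 granulosa cell genes were higher in this way. Whether these reads came from inside the testis was not tested. No red blood cell, mesonephric or skeletal muscle gene was higher or lower by this measure. Summed FPKM of red blood cell genes was 2056 to 3696 in WT and 874 to 2600.1 in mutant libraries. No gene of any marker list had an adjusted p under 0.05 in limma, and no gene of the germ cell, Sertoli or Leydig lists was at 0 in any group. The library labelled WT rep3 was singled out by its values in *Glis3* and in these 8 germ cell genes. The germ cell counts without it therefore rest in part on that choice and are a description. Without the library labelled WT rep3, 7 of the 8 germ cell genes were lower (13.1% of all genes tested were, at the same unadjusted threshold) with a median of -1.09 and 6 of them passed an adjusted p of 0.05, 4 of the 6 Leydig cell genes were higher (10.5% of all genes) and 1 passed, and 5 of the 8 Sertoli cell genes were higher and none passed. In the same fit 1 of 4 neural genes was higher and passed, 1 of 5 macrophage genes was higher and 1 of 3 skeletal muscle genes lower without passing, and no gene of the interstitial, endothelial, red blood cell, mesonephric, adrenal cortex and granulosa cell lists reached an unadjusted p under 0.05. The part of these cell types in the values of the 7 genes was not tested.

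To see which genes varied most like each of the 7, the log2 values of every gene tested were centred on their own mean and compared over the 7 libraries by the root mean square difference, a distance in log2 units that is 0 for identical profiles. The libraries are shared and the genotype difference of each gene was part of the comparison, so the likeness is a description. Genes close to *Rimbp2* were *Tcl1*, a coactivator of the kinase AKT (0.22), and *Zfp42*, a zinc finger gene expressed in pluripotent cells (0.24). *Tcl1* measured 31.0, 15.6 and 18.2 FPKM in the WT libraries and 6.76, 6.87, 11.9 and 9.71 FPKM in the mutant libraries. Like *Rimbp2*, it was highest in WT replicate 1 and lower in mutant replicates 1 and 2 than in mutant replicates 3 and 4. *Efcab10* was followed by *Rbm38*, an RNA-binding protein gene (0.15), *Dusp14*, a dual specificity phosphatase gene (0.17), and *1700001L05Rik* (0.17).

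The distance is not scaled to the fold or spread of a gene, so it tends to be smaller where these are small. The companions of *Ppid* and *Ppp2r1b*, whose folds are small, lay at smaller distances. Those of *Ppid* were *Gnl3*, which encodes the nucleolar GTP-binding protein nucleostemin (0.034), and the nuclear pore genes *Nup88* (0.037) and *Nup43* (0.040). *Gnl3* measured 65.9, 61.1 and 61.3 FPKM in the WT libraries and 46.2, 46.4, 48.7 and 51.0 FPKM in the mutant libraries, near the values of *Ppid* itself. Those of *Ppp2r1b* were *Bop1*, a factor of ribosome assembly (0.034), *Fbl*, the methyltransferase fibrillarin (0.038), and *Lyar*, a nucleolar zinc finger gene (0.046). *Bop1* was 27.1 ± 0.261 FPKM (SD, n = 3) in WT and 20.6 ± 0.684 FPKM (SD, n = 4) in mutant testes.

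Among the genes with higher values, genes close to *Pdlim4* were *Fbxw4*, an F-box gene (0.044), and *Pdgfa*, the platelet-derived growth factor A ligand (0.064). *Pdgfa* was also among the 3 nearest genes of *Kcnk3* (0.073), after *Sbsn*, which encodes suprabasin (0.068), and *Rab42*, a small GTPase gene (0.070). *Pdgfa* measured 20.2, 21.9 and 18.5 FPKM in the WT libraries and 28.1, 29.3, 26.1 and 27.7 FPKM in the mutant libraries. *Sugct* was followed by *Fam222a* (0.050), *Sct*, the gene of the hormone secretin (0.086), and *Scrn2*, a secernin gene (0.098). In *Sugct*, *Fam222a*, *Sct* and *Scrn2* alike, the library labelled WT rep3 was the highest of the WT group.

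**Figure D3:**
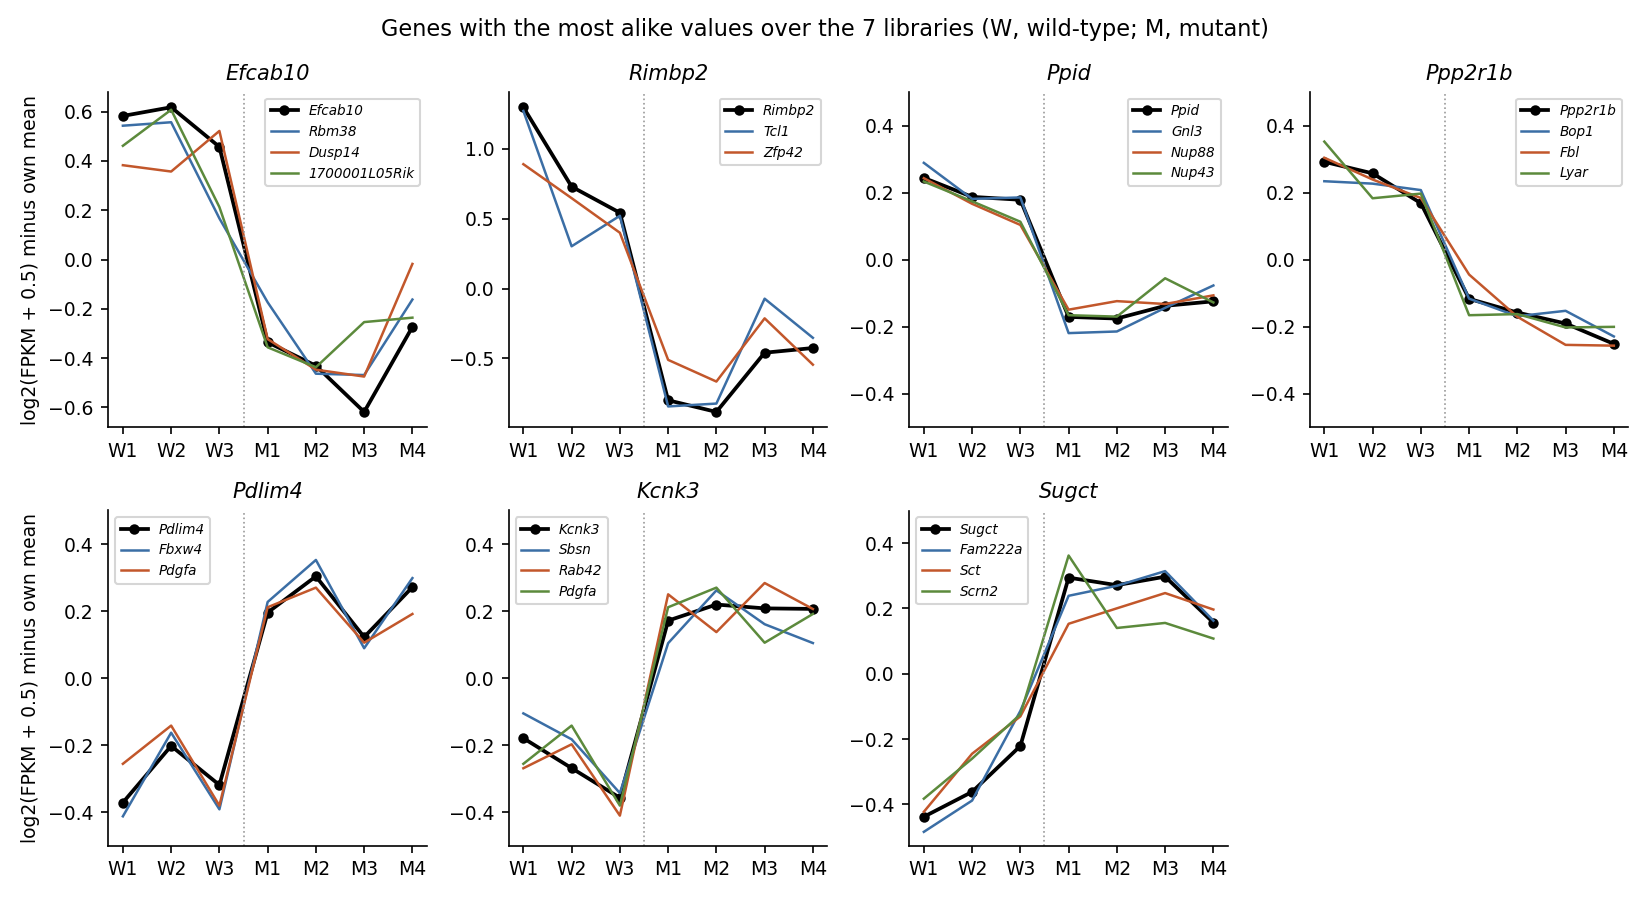
Centred log2(FPKM + 0.5) of each of the 7 genes (black) and of the reported genes with the most alike values (colours) in WT libraries W1 to W3 and mutant libraries M1 to M4; lines only join the values of a gene, since replicates have no order. The companions of *Ppid* and *Ppp2r1b* follow at root mean square differences of at most 0.046 log2 units, those of *Rimbp2* at up to 0.24. These differences are not scaled to the fold of a gene, so they do not rank the 7 genes by likeness.

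Families and pathways of the 7 genes were not used to choose them and were read from the limma fit over all genes. The lists were drawn up with earlier results of these data known. In all, 8 lists held 106 genes tested, none of them among the 7. Of these, 13 (12.3%) had an unadjusted p under 0.05 with higher values in mutant testes and 12 (11.3%) with lower values, where 8.21% and 8.79% of all genes did. No gene of the lists had an adjusted p under 0.05 in limma, the smallest being 0.114, and the median log2 difference of all list genes was 0.01, as it was over all genes tested. Without the library labelled WT rep3, 5 of the 106 (4.72%) passed, where 5.15% of all genes tested did: *Hsp90aa1*, *Tomm34*, *Ahsa1*, *Stip1* and *Hadh*. At an unadjusted p under 0.05, 13 (12.3%) were then higher and 18 (17.0%) lower, where 10.5% and 13.1% of all genes were.

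The chaperone HSP90 and its cochaperones, with which PPID works, were the list with the lowest adjusted p. Of 21 genes tested, 4 had an unadjusted p under 0.05 with lower and 2 with higher values, and the median log2 difference was -0.07. *Hsp90aa1*, the inducible form of HSP90, measured 195, 185 and 148 FPKM in the WT libraries and 108, 112, 122 and 119 FPKM in the mutant libraries, without overlap. The log2 difference was -0.60 (standard error 0.10; limma, adjusted p = 0.114), and -0.72 (adjusted p = 0.00636) without the library labelled WT rep3. *Tomm34*, a cochaperone of HSP70 and HSP90, was 17.2 ± 2.14 FPKM (SD, n = 3) in WT and 12.8 ± 0.715 FPKM (SD, n = 4) in mutant testes, with a log2 difference of -0.41 (standard error 0.09, adjusted p = 0.168 from limma) and of -0.50 (adjusted p = 0.0175) without that library. Over all alternative settings the adjusted p lay between 0.00636 and 0.352 for *Hsp90aa1* and between 0.0175 and 0.371 for *Tomm34*.

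Of the other cyclophilins, the isomerase family of PPID, 14 were tested, of which 4 had an unadjusted p under 0.05 with lower and 1 with higher values, and their median log2 difference was -0.11. *Cwc27*, a cyclophilin of the spliceosome, had a log2 difference of -0.24 (standard error 0.07, adjusted p = 0.193 from limma), and *Ranbp2*, a nuclear pore protein with a cyclophilin domain, of -0.21 (standard error 0.07, adjusted p = 0.204). *Cwc27* was 18.9 ± 1.42 FPKM (SD, n = 3) in WT and 15.8 ± 0.758 FPKM (SD, n = 4) in mutant testes.

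Among 22 other subunits and regulators of protein phosphatase 2A, 2 had an unadjusted p under 0.05 with lower and 1 with higher values (median log2 difference 0.03). The enzymes that add and remove the methyl group of the catalytic subunit were those with the smallest p: *Lcmt1*, the methyltransferase, had a log2 difference of -0.25 (standard error 0.07, adjusted p = 0.186 from limma) and *Ppme1*, the methylesterase, of -0.24 (standard error 0.08, adjusted p = 0.217). *Ppp2r1a*, the alpha form of the scaffold subunit and the paralogue of *Ppp2r1b*, measured 85.3, 74.3 and 74.9 FPKM in the WT libraries and 70.6, 73.6, 69.7 and 66.3 FPKM in the mutant libraries. The genotypes were separated only narrowly, with a log2 difference of -0.15 (standard error 0.07, adjusted p = 0.306 from limma), and its FPKM was well above that of *Ppp2r1b* in every library. Without WT replicate 1 the difference in *Ppp2r1a* was -0.09, and its adjusted p ranged from 0.206 to 0.593 over the alternative settings.

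The presynaptic active zone genes beside *Rimbp2* did not share a direction. Of 15 tested, 2 had an unadjusted p under 0.05 with higher and 1 with lower values (median log2 difference -0.05). *Erc1*, a scaffold that binds RIM proteins, was 9.52 ± 0.778 FPKM (SD, n = 3) in WT and 7.49 ± 0.795 FPKM (SD, n = 4) in mutant testes, with a log2 difference of -0.33 (standard error 0.10, adjusted p = 0.194 from limma). *Rims4*, a short RIM protein gene, was 5.30 ± 1.10 FPKM (SD, n = 3) and 7.32 ± 0.636 FPKM (SD, n = 4), with a log2 difference of 0.45 (standard error 0.14, adjusted p = 0.201 from limma). Without the library labelled WT rep3 the difference in *Rims4* was 0.28, and its adjusted p ranged from 0.153 to 0.376 over the alternative settings.

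Of 6 other EF-hand (Efcab) genes tested, 1 had an unadjusted p under 0.05, *Efcab2*, with a log2 difference of 0.30 (standard error 0.10, adjusted p = 0.206 from limma), in the opposite direction to *Efcab10*. *Efcab11* had a log2 difference of 0.16 (standard error 0.09, adjusted p = 0.380), and of 0.25 without WT replicate 2, with an adjusted p between 0.198 and 0.633 over all alternative settings. The list included *Cracr2b*, once named as an Efcab gene, and its median was 0.05.

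Of 9 PDZ-LIM and alpha-actinin genes tested beside *Pdlim4*, 1 had an unadjusted p under 0.05, *Pdlim2*, with 22.2 ± 3.36 FPKM (SD, n = 3) in WT and 26.8 ± 2.15 FPKM (SD, n = 4) in mutant testes, a log2 difference of 0.27 (standard error 0.11, adjusted p = 0.267 from limma). The difference in *Pdlim2* was 0.15 without WT replicate 1 and 0.37 without the library labelled WT rep3. Over all alternative settings its adjusted p lay between 0.0849 and 0.554. *Pdlim3* measured 42.9, 62.8 and 20.3 FPKM in the WT libraries and 71.3, 73.4, 50.6 and 58.5 FPKM in the mutant libraries. The lowest value was in the library labelled WT rep3 and its groups overlapped, with a log2 difference of 0.72 (standard error 0.33, adjusted p = 0.311 from limma). It was 0.27 without the library labelled WT rep3 and 1.07 without WT replicate 2, and the adjusted p lay between 0.171 and 0.490 over all alternative settings. The median of the list was -0.04.

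Of 5 other two-pore potassium channel genes tested, 2 had an unadjusted p under 0.05 with higher values and the median log2 difference was 0.23. *Kcnk1* measured 5.34, 4.89 and 5.77 FPKM in the WT libraries and 6.22, 6.31, 6.27 and 6.49 FPKM in the mutant libraries, with a log2 difference of 0.23 (standard error 0.08, adjusted p = 0.220 from limma). *Kcnk6* was 1.85 ± 0.188 FPKM (SD, n = 3) and 2.34 ± 0.123 FPKM (SD, n = 4), with a log2 difference of 0.28 (standard error 0.10, adjusted p = 0.235). Both had groups that did not overlap. Over all genes tested, 7.31% had groups that did not overlap with higher values in mutant testes, and 8.21% had an unadjusted p under 0.05 in limma with higher values.

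Of 14 genes of lysine and glutarate breakdown and of CoA transfer, the pathway of *Sugct*, 3 had an unadjusted p under 0.05 with higher and 1 with lower values, and the median log2 difference was 0.13. *Hadh*, a dehydrogenase of mitochondrial acyl-CoA breakdown, measured 81.5, 89.7 and 104 FPKM in the WT libraries and 110.3, 105, 112 and 114 FPKM in the mutant libraries, and the library labelled WT rep3 was the WT library nearest to them. The log2 difference was 0.27 (standard error 0.08; limma, adjusted p = 0.201), and 0.36 (adjusted p = 0.0292) without the library labelled WT rep3. The adjusted p of *Hadh* lay between 0.0292 and 0.432 over all alternative settings. *Oxct1*, which moves coenzyme A from succinyl-CoA to ketone bodies, was 116 ± 11.4 FPKM (SD, n = 3) and 134 ± 3.85 FPKM (SD, n = 4), with a log2 difference of 0.21 (standard error 0.07, adjusted p = 0.225).

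**Figure D4:**
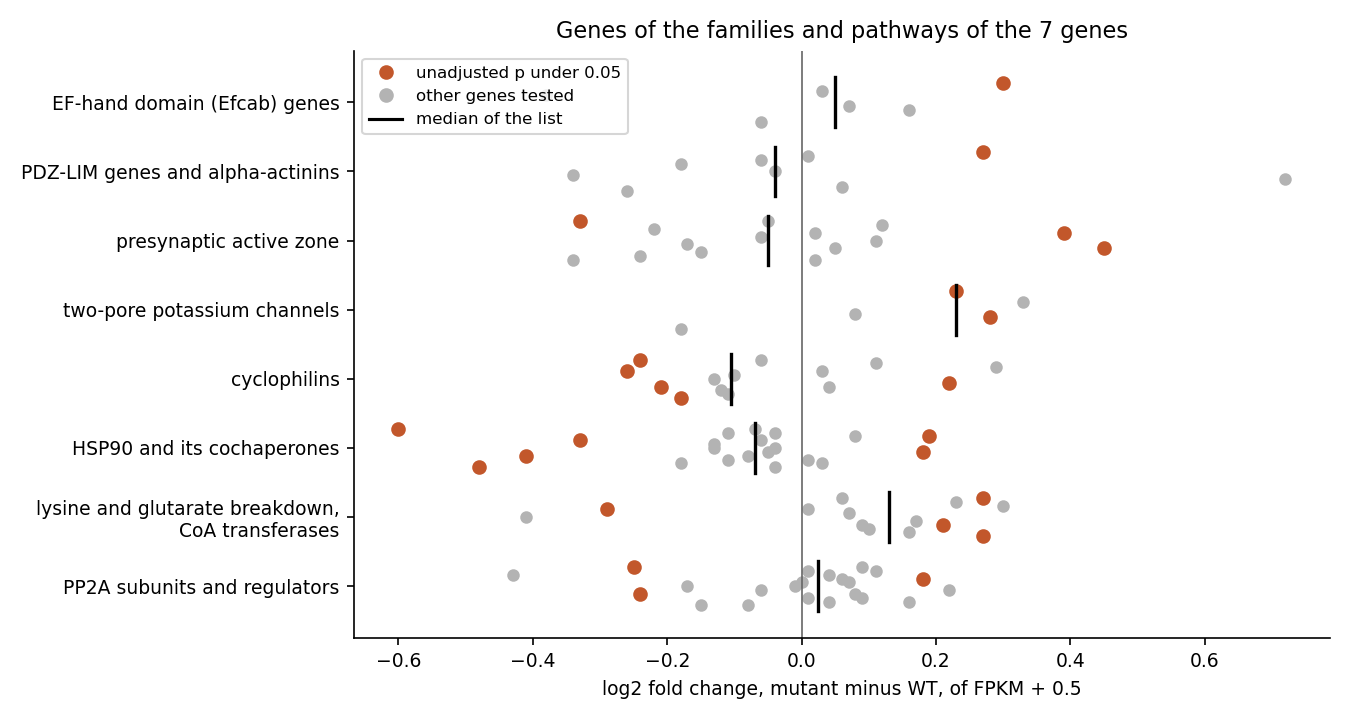
Log2 fold change of FPKM + 0.5, mutant minus WT, of the 106 tested genes of 8 families and pathways. Each point is a gene (orange, unadjusted p under 0.05 in limma; grey, other genes) and black bars are list medians, which lie between -0.11 and 0.23; points are shifted vertically only to keep them apart.

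The genes beside the 7 on the chromosome were read in the same fit, as the nearest gene tested on each side that does not overlap the gene itself. Of 14 neighbours, 2 had an unadjusted p under 0.05 with higher values in mutant testes and none with lower values, where 8.21% and 8.79% of all genes did. None had an adjusted p under 0.05 in limma, the smallest being 0.214, and their median log2 difference was 0.03. *Layn*, a hyaluronan receptor gene 163 kb from *Ppp2r1b*, had a log2 difference of 0.23 (standard error 0.08, adjusted p = 0.236 from limma), in the opposite direction to *Ppp2r1b*. *Inhba*, the gene of the activin beta A subunit 830 kb from *Sugct*, measured 9.01, 9.08 and 5.04 FPKM in the WT libraries and 11.9, 11.4, 10.3 and 10.7 FPKM in the mutant libraries, lowest in the library labelled WT rep3. The log2 difference of 0.54 (standard error 0.18; limma, adjusted p = 0.214) became 0.28 (adjusted p = 0.101) without that library, and the adjusted p lay between 0.101 and 0.384 over all alternative settings. The genes nearest to *Ppid* and *Sugct*, *Etfdh* at 138 bases and *Mplkip* at 648 bases, had log2 differences of 0.15 (adjusted p = 0.356) and -0.09 (adjusted p = 0.656), opposite in sign to their neighbours.

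Overlap with other genes bears on how the reads of some of the 7 could be counted, since the libraries did not keep the strand. *Ppp2r1b* overlaps *Sik2*, on the opposite strand, by 1429 bases at its 3′ end, and 20.4% of the 50-base words of its GENCODE M21 transcripts occur in *Sik2* transcripts. *Sik2* measured between 1.99 and 2.63 FPKM over all libraries, with a log2 difference of -0.09. *Ppid* shared 11% of its words with transcripts of other genes, *Kcnk3* 4.89%, *Sugct* 2.85%, *Rimbp2* 0.308%, and *Efcab10* and *Pdlim4* none. *Kcnk3* overlaps *Gm9899* by 450 bases at its 5′ end on the opposite strand, a gene between 0.519 and 0.808 FPKM. *Piwil1*, a germ cell gene of the piRNA pathway, ends 4927 bases from the 3′ end of *Rimbp2*, the ends of both facing each other. It was below the filter, at 0.615, 0.562 and 0.204 FPKM in the WT libraries and 0.269, 0.134, 0.136 and 0.0554 FPKM in the mutant libraries, and was named after its values were seen. In both genes the library labelled WT rep3 was the lowest of the WT group, and in *Piwil1* it was inside the mutant range. *Rimbp2* was chosen for groups that do not overlap, so the 2 genes cannot be compared by that range.

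A second table of the same libraries holds uniquely mapped reads counted over 3494995 repeat loci (LINE, SINE and LTR elements), many of them in introns, and gives a view of the 7 genes that rests on other bases than most of their exons. The rRNA-depleted libraries were made without selection for poly-A tails, so reads in introns were sequenced beside those of mRNA. Reads of all loci inside each gene were summed and divided by the total of the library in this table, 3454317 to 4670830 reads, as CPM, counts per 1000000 reads. They come from the same libraries and contrast and are given without a test. In genes other than the 7, loci that start inside a gene and end beyond it were counted too. Among 11566 tested genes with a mean of at least 10 such reads, 707 (6.11%) had every mutant library below every WT library and 367 (3.17%) every mutant library above.

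*Rimbp2* was among the former. Its 256 loci, none of which overlapped an exon, held 240, 183 and 140 reads in the WT libraries and 71, 54, 58 and 64 reads in the mutant libraries. In CPM these were 51.4, 47.5 and 32.5 against 18.9, 15.6, 15.5 and 16.1, a mean of 43.8 ± 9.97 (SD, n = 3) against 16.6 ± 1.6 (SD, n = 4) and a log2 ratio of -1.40. This ratio was -1.58 without the library labelled WT rep3. The lower reads were not confined to one stretch of the gene. In 4 equal stretches of the gene, from its 5′ to its 3′ end, the log2 ratios were -1.40, -1.94, -2.06 and -1.17, and the groups overlapped only in the stretch nearest to the 5′ end. The locus with most reads was an RMER19C element (chr5, 128777335 to 128777849) with 56, 56 and 23 reads in the WT libraries and 38, 18, 18 and 16 in the mutant libraries, whose ranges overlapped.

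*Efcab10*, a short gene, had few reads in 14 loci: 11, 6 and 4 in the WT libraries and 1, 1, 1 and 0 in the mutant libraries. Every mutant library had fewer reads than every WT library, and with this few reads no ratio is given.

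*Sugct* was higher in this table as well. Its 969 loci held 419, 377 and 375 reads in the WT libraries and 549, 487, 405 and 549 reads in the mutant libraries, or 89.7, 97.9 and 87.1 CPM against 146, 141, 109 and 138 CPM. The means of 91.6 ± 5.65 (SD, n = 3) and 134 ± 17.0 CPM (SD, n = 4) gave a log2 ratio of 0.55, and 0.53 over the 963 loci outside exons, where the groups did not overlap either. Over all loci the ratio was 0.51 without the library labelled WT rep3. In 4 equal stretches from the 5′ end the log2 ratios were 0.56, 0.53, 0.43 and 0.73, and mutant replicate 3 was the mutant library nearest to the WT libraries in each of them. The groups overlapped in the stretch with the ratio of 0.43, where mutant replicate 3 had 31.6 CPM and the WT libraries 31.1 to 37.1 CPM.

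*Kcnk3* had 31.5, 23.4 and 27.2 CPM in the WT libraries and 33.9, 40.8, 33.8 and 33.3 CPM in the mutant libraries over 47 loci, a log2 ratio of 0.37 without overlap. This ratio was also 0.37 without the library labelled WT rep3. Over the 44 loci outside exons the values were 22.1, 18.2 and 22.1 CPM against 26.7, 27.5, 21.7 and 20.9 CPM, so that the groups overlapped and the log2 ratio was 0.22.

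In the remaining 3 genes the repeat reads of the groups overlapped although their FPKM did not. *Ppid* had 167, 130 and 141 CPM in the WT libraries and 155, 146, 126 and 120 CPM in the mutant libraries (log2 ratio -0.10), most of it from 5 loci that overlap an annotated exon. *Ppp2r1b* had 45.0 ± 4.04 CPM (SD, n = 3) and 41.5 ± 6.11 CPM (SD, n = 4) over 34 loci (log2 ratio -0.12). *Pdlim4* had 7.92 ± 0.774 CPM (SD, n = 3) and 8.56 ± 1.44 CPM (SD, n = 4) over 10 loci, from 26 to 40 reads per library (log2 ratio 0.11). These small ratios moved with single libraries and with the scaling. That of *Ppid* was 0.01 without WT replicate 1, -0.02 with TMM scaling and -0.25 over loci outside exons. That of *Ppp2r1b* was -0.04 with TMM scaling, without WT replicate 1 or without mutant replicate 4, and -0.20 without mutant replicate 2. That of *Pdlim4* was 0.18 with TMM scaling, 0.20 without mutant replicate 1, 0.17 without WT replicate 2, 0.06 without mutant replicate 3, 0.04 without WT replicate 1 and 0.02 without mutant replicate 4.

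**Figure D5:**
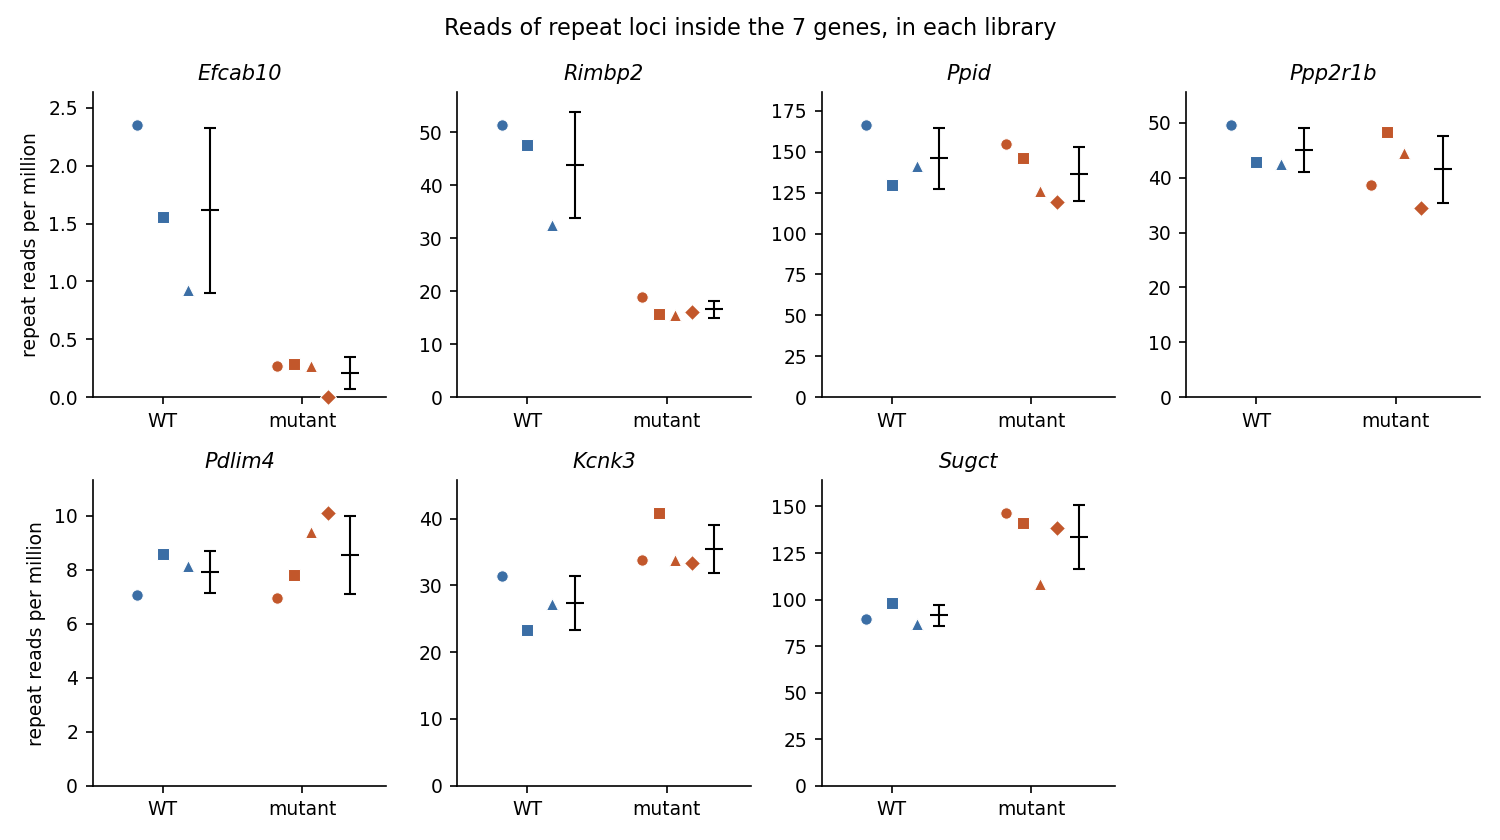
Reads of repeat loci inside each of the 7 genes, in CPM of the repeat table, by library, on axes that start at 0 (symbols, colours and bars as in the plot of FPKM). The groups stand apart in *Rimbp2*, *Sugct* and *Kcnk3*, and in *Efcab10* from at most 11 reads per library; they overlap in *Ppid*, *Ppp2r1b* and *Pdlim4*.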

How the data were processed

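RNA-Seq of whole testes at E14.5 was analyzed from 3 wild-type (WT) and 4 mutant libraries, grouped by their labels, each from a single pair of testes. The authors filtered reads on quality, aligned them to mm10 with TopHat2 2.0.12 and deposited FPKM per RefSeq gene made with Cuffquant and Cuffnorm; they also deposited counts of uniquely mapped reads per RepeatMasker element made with HTSeq. Reads were treated as unstranded. FPKM does not give the number of fragments behind a value; steps between FPKM values below 0.2 placed library depths at 0.78 to 1.0 of WT replicate 1. No per-sample column was left unused.

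The 7 genes and all lists were chosen with earlier results of these data known. The test was limma 3.58.1 (R 4.3.3) on log2(FPKM + 0.5) with a trend, two-sided, over all genes whose mean reached 0.5 FPKM, and p-values were adjusted by Benjamini-Hochberg (threshold 0.05). It was checked on simulated data. Cuffdiff, which the authors used, needs aligned reads and was not run. Repeat loci lying wholly inside each of the 7 genes were summed, and for all other genes every locus that starts inside the gene. Sums were divided by the library total (CPM), and exons were those of GENCODE M21. TMM factors came from edgeR 4.0.16, and other steps were run in Python 3.11. Genes named beside the 7 are *Glis3*, the 2 with the smallest p in each list, *Ppp2r1a*, neighbours with an unadjusted p under 0.05 and the 3 most alike genes, of which 1 each for *Rimbp2* and *Pdlim4* is not reported here; others are said to be named after their values were seen. Alternatives were other pseudocounts (0.1, 1), no filter or one at a mean of 2 FPKM, median centring, quantile normalization, a fit without the trend, a replicate block and each library left out, and for repeat loci TMM, loci outside exons and loci averaging 1 read or more.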

Additional observations from a re-analysis of the deposited data

Results flagged for a closer look

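In a group of 4 libraries, a value whose distance to the nearest other is a large share of the range (above Dixon's 95% critical value for this number) was marked, which chance does in about 1 of 20 groups, and 32 groups were looked at. The reads of repeat loci inside *Kcnk3* were marked in the mutant group, with a share of 0.925: mutant replicate 2 had 40.8 CPM and the other mutant libraries 33.3 to 33.9 CPM. The *Kcnk3* FPKM of the same library was 12.7, where the mutant libraries ranged from 12.3 to 12.7.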

How the results depend on the processing

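The log2 differences of the 7 genes kept their direction under all alternatives. Those of *Efcab10* (-1.17 with a pseudocount of 0.1, -0.80 with 1) and *Rimbp2* (-2.28 and -1.08) moved with the pseudocount by more than the SD within groups, and the others did not move by that much under any setting. A filter at a mean of 2 FPKM removed *Efcab10* and *Rimbp2*, so it gave no value for them. Leaving out each library gave -1.01 to -0.90 for *Efcab10*, -1.66 to -1.28 for *Rimbp2*, -0.37 to -0.34 for *Ppid*, -0.45 to -0.39 for *Ppp2r1b*, 0.48 to 0.57 for *Pdlim4*, 0.43 to 0.51 for *Kcnk3* and 0.55 to 0.65 for *Sugct*.

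The count of genes with an adjusted p under 0.05 in limma, 1 as reported, was 4 with no filter, 3 with quantile normalization and 0 with a replicate block, where 1726 genes had an unadjusted p under 0.05. Leaving out each library gave 1 to 720, with 2 without WT replicate 1, 5 without WT replicate 2, 720 without the library labelled WT rep3 and 2 without mutant replicate 3. Genes with groups that do not overlap were 1209 to 2389 (lower) and 1206 to 2178 (higher) with a library left out, where fewer libraries have to be separated; the highest counts were without the library labelled WT rep3. Among the family and pathway genes 0 to 5 passed with a library left out, and among neighbours 0. The log2 ratio of repeat reads in *Ppid* turned to 0.01 without WT replicate 1, within a range of -0.17 to 0.01 over the libraries left out; the cause of these shifts was not tested.

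Deviations of same-numbered libraries correlated at 0.198, -0.177 and 0.229 for numbers 1 to 3. The labels give no link between these libraries beyond the number. Differently numbered libraries were not compared, so whether the numbers pair the samples cannot be told. The replicate block gave log2 differences of -1.01 (*Efcab10*), -1.57 (*Rimbp2*), -0.36 (*Ppid*), -0.39 (*Ppp2r1b*), 0.50 (*Pdlim4*), 0.47 (*Kcnk3*) and 0.63 (*Sugct*). The low FPKM of *Rimbp2* and the few repeat reads of *Efcab10* limit what their values can show. The limma p-values set the difference between genotypes against the spread between single embryos, 3 and 4 per group.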
